A study of Mus musculus with 52 samples.

Results

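The genes described here are 7 genes known from the choroid plexus, Ttr, F5, Folr1, Kl, Enpp2, Clic6 and Aqp1, followed across 52 RNA libraries from mouse frontal cortex. They were chosen by symbol among the 15692 genes of the deposited count table. All 7 were in the table and passed the filter on low counts. The choroid plexus is a vascular fold inside the brain ventricles, covered by a secretory epithelium that makes cerebrospinal fluid. Transthyretin (Ttr) is its best known product, a carrier of thyroid hormone and of retinol with its binding protein. The epithelium also takes up folate through folate receptor alpha (Folr1), sheds Klotho (Kl) and moves water through aquaporin 1 (Aqp1). The choroid plexus is not part of the cortex.

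Each library came from 1 mouse. The APP/PS1ΔE9 transgenes, a cause of amyloid plaques, were carried by all mice, controls included. Targeted replacement had put human APOE3 (APP/E3) or human APOE4 (APP/E4) in place of the mouse gene on both alleles. Mice of each genotype and sex ate normal chow (ND) or a Western diet rich in fat (HFD), with 40% of its calories from fat, 42.6% from carbohydrate and 16.8% from protein. Feeding lasted 3 months from a mean age near 3.5 months, and behaviour was tested at 14.7 months on average; the age at dissection is not stated in the labels. On ND there were 6 APP/E3 males, 7 APP/E3 females, 6 APP/E4 males and 7 APP/E4 females. On HFD there were 6 APP/E3 males, 8 APP/E3 females, 5 APP/E4 males and 7 APP/E4 females. Replicate numbers follow the deposit order and pair nothing.

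Libraries held 5.34 to 13.1 M counts, apart from 1 of 39.4 M. Values are counts scaled to 1 M per library (CPM) after TMM, a correction for library composition, and 3 counts corresponded to 0.0762 to 0.561 CPM. Markers of cortical neurons were present in all 52 libraries, with Slc17a7, the vesicular glutamate transporter of cortical excitatory neurons, at 972 to 1999 CPM. The libraries also fell into read classes by the level of Csl, at 10.7 to 18.2 CPM in 41 libraries (class 1) and 0.0937 to 1.15 CPM in 11 libraries (class 2), and all 11 were from females.

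Ttr had the widest range among the 6 members counted in all libraries. It ranged from 0.527 to 2402 CPM with a median of 7.26, a 4561-fold span. APP/E3 HFD female 6 held 20358 Ttr counts, 59.5% of the 34228 Ttr counts of the whole series. APP/E4 HFD female 5 followed with 651 CPM, female 6 of that group with 201 and female 4 with 164. Another 3 libraries exceeded 5 times the median: APP/E4 ND female 7 at 88.0 CPM, APP/E4 HFD female 3 at 76.9 and APP/E4 ND male 5 at 40.9. Of these 7 libraries, 6 were from females. Among the 10 libraries of highest Ttr, 9 were from females, 6 from HFD mice and 6 from APP/E4 mice, and 7 of the 10 lowest were from males. Since these are bulk samples, fewer choroid plexus cells and less RNA per cell cannot be told apart.

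By group, median Ttr was highest in APP/E4 HFD females, at 76.9 CPM (lowest 2.68, highest 651, n = 7). APP/E3 HFD females had a median of 17.2 CPM (3.36 to 2402, n = 8). APP/E3 ND females had 12.6 CPM (1.79 to 33.7, n = 7), and APP/E4 ND females 7.41 CPM (0.527 to 88.0, n = 7). The female groups thus each spanned more than a 10-fold range. In males the medians were 7.36 CPM in APP/E4 ND (1.15 to 40.9, n = 6), 6.24 in APP/E3 ND (1.47 to 7.10, n = 6) and 2.78 in APP/E3 HFD (1.17 to 16.7, n = 6). The 5 APP/E4 HFD males stood at 7.93, 3.09, 2.63, 2.20 and 1.94 CPM. The ranges of all 8 groups overlapped, so no neighbouring groups in this order were separated.

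**Figure D1:**
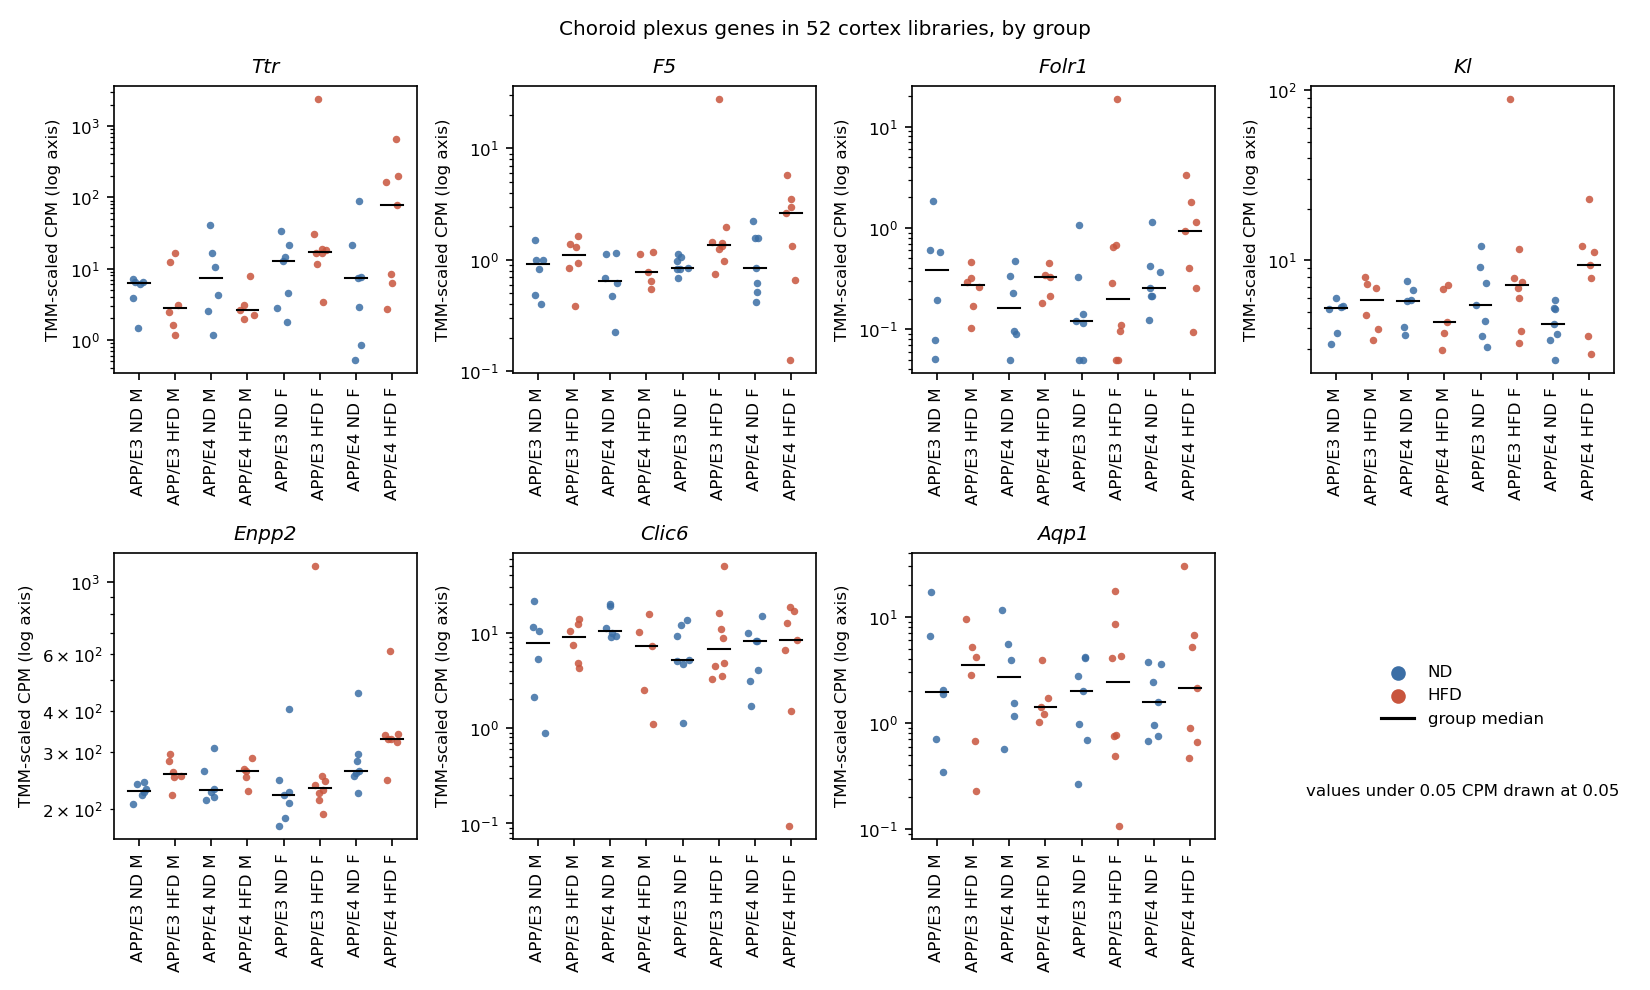
Each panel plots 1 gene, with TMM-scaled CPM on a log axis against the 8 groups. Each point is a library, the black line is the group median, and values under 0.05 CPM are drawn at 0.05. APP/E3 HFD female 6 stands highest for Ttr, F5, Folr1, Kl, Enpp2 and Clic6, while Aqp1 is highest in APP/E4 HFD female 4.

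F5 encodes coagulation factor V. It lay between 0.128 and 27.7 CPM with a median of 0.986, and 2 libraries exceeded 5 times that median. These were APP/E3 HFD female 6 at 27.7 CPM and APP/E4 HFD female 5 at 5.76 CPM, which also led for Ttr. The group median was highest in APP/E4 HFD females, at 2.64 CPM (0.128 to 5.76, n = 7), and the medians of the other 7 groups lay between 0.653 and 1.37 CPM.

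Folr1 was near the limit of detection in most libraries. Its median was 0.257 CPM, 26 of 52 libraries held fewer than 3 counts and 5 held none. APP/E3 HFD female 6 reached 18.8 CPM, from 159 counts. APP/E4 HFD female 5 had 3.33 CPM, APP/E3 ND male 3 had 1.83 and APP/E4 HFD female 6 had 1.82, and these 4 were the libraries above 5 times the median. Folr1 no longer passed the low-count filter once the 2 libraries of highest Ttr were left out, so its tests rest on those libraries.

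Kl, the co-receptor for FGF23 whose shed form circulates in cerebrospinal fluid, was counted in every library. It ranged from 2.61 to 89.0 CPM with a median of 5.45. Only APP/E3 HFD female 6 exceeded 5 times the median, and APP/E4 HFD female 5 came next at 23.1 CPM. The remaining 50 libraries lay between 2.61 and 12.2 CPM, a narrow spread beside that of Ttr.

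Enpp2 encodes autotaxin, the enzyme that makes lysophosphatidic acid, and is also made by oligodendrocytes. It ranged from 177 to 1127 CPM with a median of 248. APP/E3 HFD female 6 was again highest, at 4.54 times the median, and APP/E4 HFD female 5 was next at 615 CPM. APP/E4 ND female 7 at 457 CPM and APP/E3 ND female 4 at 407 CPM stood apart from their own groups as well. Those last libraries had the highest summed CPM of 12 oligodendrocyte genes, 7880 and 5806 against a median of 3395, and Mbp (myelin basic protein) at 2785 and 2055 CPM. In APP/E3 HFD female 6 and APP/E4 HFD female 5 the oligodendrocyte sums were 3565 and 4448 CPM. The part of oligodendrocyte RNA in these Enpp2 values was not tested.

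Clic6, an intracellular chloride channel protein, and Aqp1 were spread differently over the libraries. Clic6 ranged from 0.0940 to 50.9 CPM with a median of 8.60. Again APP/E3 HFD female 6 was highest, followed by APP/E3 ND male 3 at 21.8 CPM. Aqp1 ranged from 0.107 to 30.5 CPM with a median of 1.93. Its 4 libraries above 5 times the median were APP/E4 HFD female 4 at 30.5 CPM, APP/E3 HFD female 6 at 17.5, APP/E3 ND male 3 at 17.3 and APP/E4 ND male 3 at 11.7. The males among them had 6.49 and 2.57 CPM of Ttr, below the Ttr median.

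Over the whole set, 9 libraries held at least 1 member above 5 times its median and 43 held none. APP/E3 HFD female 6 alone held at least 4 such members: 6 of 7, with Enpp2 as the exception. APP/E4 HFD female 5 held 3, Ttr, F5 and Folr1. Per kilobase of exon (union of annotated exons), the median level was highest for Enpp2, at 43.0 CPM per kb, followed by Ttr at 6.12 and Clic6 at 2.20. Aqp1 had 0.733 CPM per kb, Kl 0.584, F5 0.133 and Folr1 0.112. In APP/E3 HFD female 6 the order changed, with Ttr at 2026 CPM per kb above Enpp2 at 195, Clic6 at 13, Kl at 9.54, Folr1 at 8.17, Aqp1 at 6.65 and F5 at 3.73.

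The proportions among members were compared in the 4 libraries of highest Ttr, as each gene's counts above its median level per 1000 such counts of Ttr. F5 gave 11.2 (95% Poisson interval 9.73 to 12.8) in APP/E3 HFD female 6, and 7.42 (5.0 to 10.4), 13 (7.03 to 20.9) and 10.6 (4.15 to 19.5) in APP/E4 HFD females 5, 6 and 4. Folr1 gave 7.73 (6.56 to 9.04) in the first of these and 4.77 (2.98 to 7.18), 8.03 (3.91 to 14.1) and 5.59 (1.67 to 12.1) in the others. Kl gave 34.9 (32.3 to 37.6), then 27.3 (22.3 to 33.0), 34.9 (23.3 to 48.5) and 25.5 (12.7 to 40.8). In these 4 libraries the proportions of F5, Folr1 and Kl stayed within a factor of 2 for each gene. They did not in the next libraries by Ttr: APP/E4 HFD female 3 gave 28.9 (15.3 to 46.6) for F5 and 83.2 (55.6 to 114.8) for Kl, and APP/E4 ND female 7 gave 7.43 (-0.567 to 18.8) for F5 and -1.96 (-17.5 to 16.8) for Kl. Enpp2 gave 367 (357 to 376), 570 (543 to 597), 415 (352 to 480) and 583 (502 to 666), with intervals that separated APP/E3 HFD female 6 from APP/E4 HFD females 5 and 4. Aqp1 gave 6.49 (5.36 to 7.76) and 5.16 (2.86 to 8.07) in the leading pair but 25 (16.5 to 35.4) and 182 (158 to 208) in the other pair. Clic6 gave 17.6, 12.9, -0.667 and 27.0, so APP/E4 HFD female 6 had no Clic6 above the median. These intervals cover counting error only.

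For the members that moved with Ttr, the promoter windows in RefSeq (assembly GRCm38.p6, a later build than the one behind the counts) are shown for F5 and Kl, because these genes rose and fell with Ttr across libraries. The windows run from 250 bases before to 50 bases after the annotated start, 5′ to 3′, and capitals mark the bases from the start onward. The F5 window is chr1:164151585-164151884 on the plus strand and the Kl window is chr5:150952357-150952656 on the plus strand.
F5: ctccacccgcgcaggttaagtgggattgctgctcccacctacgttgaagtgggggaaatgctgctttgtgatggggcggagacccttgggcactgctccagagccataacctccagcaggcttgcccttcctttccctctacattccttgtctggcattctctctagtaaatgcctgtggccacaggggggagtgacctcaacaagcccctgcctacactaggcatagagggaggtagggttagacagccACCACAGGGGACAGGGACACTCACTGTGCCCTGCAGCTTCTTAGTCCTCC
Kl: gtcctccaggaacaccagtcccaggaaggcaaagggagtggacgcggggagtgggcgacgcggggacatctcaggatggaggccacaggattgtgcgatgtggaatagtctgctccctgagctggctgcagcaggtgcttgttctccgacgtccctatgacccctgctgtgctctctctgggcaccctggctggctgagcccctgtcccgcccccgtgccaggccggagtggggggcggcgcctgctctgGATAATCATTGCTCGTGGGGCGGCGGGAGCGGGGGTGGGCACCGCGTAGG
TAATCC and its reverse complement GGATTA, the core bound by OTX homeodomain factors such as Otx2, which is made in the choroid plexus, were searched on both strands. Neither was found in the windows of F5, Kl and Aqp1, the 3 members with a window, while 7.06% of 32851 windows of the same length held 1 or more. This says only that these letters are not in these windows.

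Correlations were computed for all 21 pairs of members over 52 libraries on log2 CPM. Pearson's r passed an adjusted p under 0.05 (permutation test, Benjamini-Hochberg over 21 pairs) in 15 pairs and Spearman's rho in 9. Ttr and F5 gave r = 0.756 (p = 1e-05, the smallest the permutations allow; adjusted p = 3.5e-05) and rho = 0.548 (p = 4e-05, adjusted p = 0.000525). Ttr and Kl gave r = 0.738 (p = 1e-05, adjusted p = 3.5e-05) and rho = 0.546 (p = 5e-05, adjusted p = 0.000525), and Ttr and Folr1 gave r = 0.722 (p = 1e-05, adjusted p = 3.5e-05) and rho = 0.495 (p = 0.0002, adjusted p = 0.0014), each by permutation. Without the 2 libraries farthest from the Ttr median, APP/E3 HFD female 6 and APP/E4 HFD female 5, these r were 0.577, 0.539 and 0.516. The relation of Ttr with F5, Kl and Folr1 was therefore smaller but positive without them. Folr1 failed the low-count filter without these libraries, and 26 of the other 50 held under 3 counts of it. Its r therefore cannot stand as support.

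Ttr and Enpp2 gave r = 0.687 (permutation p = 1e-05, adjusted p = 3.5e-05) but rho = 0.291 (permutation p = 0.0373, adjusted p = 0.0765), and r = 0.410 without the same pair of libraries. Kl and Enpp2 gave r = 0.544 (permutation p = 0.00241, adjusted p = 0.0046) and rho = -0.019 (permutation p = 0.895). Without the 2 farthest libraries r was -0.114, so this relation rests on those libraries. The 10 pairs among Ttr, F5, Folr1, Kl and Enpp2 ranged from r = 0.544 to 0.756 over all libraries and from -0.114 to 0.577 without the 2 farthest. Within read class 1 (41 libraries) their r lay between 0.695 and 0.798, and as deviations from the 8 group means between 0.549 and 0.744. In class 2, with 11 libraries, Ttr gave r = 0.540 with F5, 0.842 with Folr1, 0.630 with Kl and 0.521 with Enpp2. In the same libraries F5 gave r = 0.232 with Folr1, 0.339 with Kl and 0.28 with Enpp2. Folr1 gave 0.535 with Kl and 0.536 with Enpp2, and Kl gave -0.218 with Enpp2.

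By Pearson's r, Clic6 and Aqp1 moved less closely with the rest, with r between 0.161 and 0.506 in their 11 pairs. Of these, Kl and Clic6 passed the threshold by r = 0.506 (permutation adjusted p = 0.00124) and rho = 0.473 (permutation adjusted p = 0.00299). F5 and Clic6 (r = 0.424) and Clic6 and Aqp1 (r = 0.396) passed too, at a permutation adjusted p of 0.00575 each. So did F5 and Aqp1 (r = 0.341, permutation adjusted p = 0.0188) and Kl and Aqp1 (r = 0.336, permutation adjusted p = 0.0199). Ttr and Clic6 gave r = 0.229 (permutation p = 0.101, adjusted p = 0.125) and rho = 0.062 (permutation p = 0.663, adjusted p = 0.819). Ttr and Aqp1 gave r = 0.225 (permutation p = 0.109, adjusted p = 0.127) and rho = 0.033 (permutation p = 0.813, adjusted p = 0.854). Neither pair passed the threshold over all libraries. Within read class 1, r was 0.327 for Clic6 (permutation adjusted p = 0.0451) and 0.413 for Aqp1 (permutation adjusted p = 0.00997), and as deviations from group means Clic6 passed with r = 0.297 (permutation adjusted p = 0.0415). Without the 2 libraries of highest Ttr, r was 0.029 for Clic6 and 0.052 for Aqp1.

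**Figure D2:**
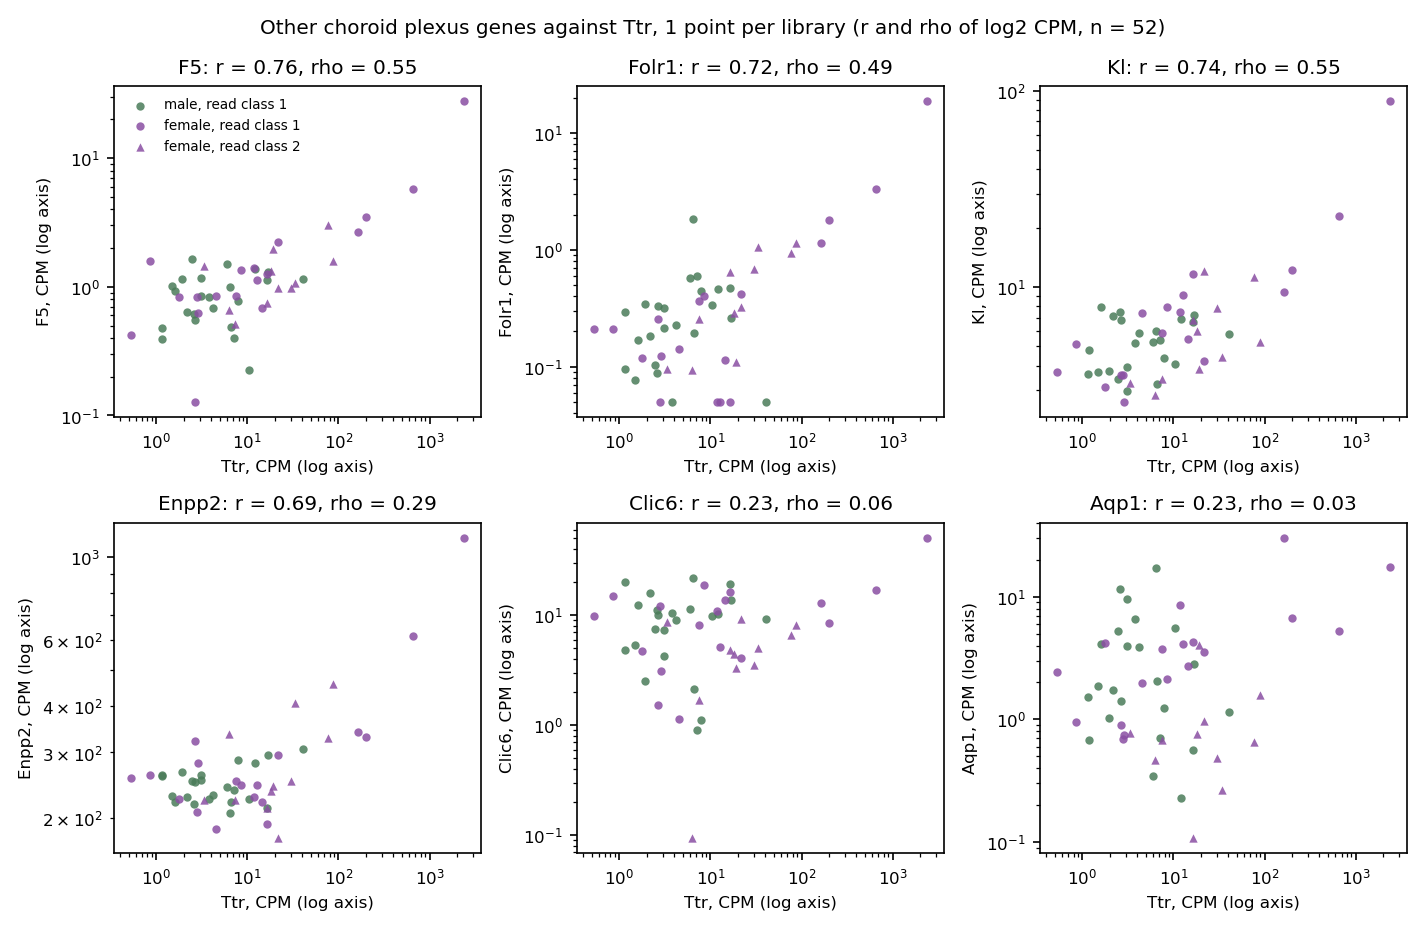
Each panel plots the CPM of 1 member against the CPM of Ttr, both on log axes, with 1 point per library, coloured by sex and shaped by read class; titles give r and rho of log2 CPM (n = 52). F5, Folr1, Kl and Enpp2 rise with Ttr at the upper end, led by APP/E3 HFD female 6 at 2402 CPM of Ttr, while Clic6 and Aqp1 are scattered (r = 0.229 and 0.225).

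The genes whose log2 CPM followed Ttr most closely over the 52 libraries were ranked among the other 15194 tested genes, as a description with no test. The nearest outside the 7 members was Slc4a5 (r = 0.838), a sodium bicarbonate cotransporter, then Kcne2 (0.775), a potassium channel subunit, both known from the choroid plexus. Sostdc1 (0.703), Calml4 (0.661), Prlr, the prolactin receptor (0.660), 1500015O10Rik (0.658), Col8a1 (0.618), Rdh5 (0.611), Acadl (0.610) and Slc31a1 (0.604) followed. Of these 10, 8 stood in a list of 28 further choroid plexus genes. F5, Kl, Folr1 and Enpp2 ranked 3, 4, 5 and 7 in the same order, while Clic6 and Aqp1 were not among the 20 nearest. The points share libraries, so high values in a few libraries enter every r.

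Of the 28 further choroid plexus genes, 25 were in the table and 20 were tested. In APP/E3 HFD female 6, 18 of the 20 had their highest value and 12 exceeded 5 times their median. The exceptions were Otx2, whose highest value was in APP/E3 ND male 3, and Wfikkn2, highest in APP/E3 ND female 7. Slc4a5 reached 19.7 CPM there against a median of 0.138, and Prlr reached 36.5 CPM against a median of 1.12. Kcnj13, a potassium channel of the epithelium, reached 16.3 CPM against a median of 1.29. For 8 of the 20, APP/E4 HFD female 5 was second highest. The summed CPM of the 20 ranked 1 in APP/E3 HFD female 6 (700.9 against a median of 180.5). It ranked 8 in APP/E4 HFD female 5 (241.2), 13 in female 6 of that group (231.5) and 3 in female 4 (299.4). In APP/E4 ND female 7 it ranked 46 of 52 (124.6). Abundant genes weigh most in this sum, such as Igf2 (median 68.9 CPM, r = 0.326 with Ttr) and Car12 (median 25.65 CPM, r = -0.115). In APP/E4 ND female 7, Slc4a5 was at 1.59 CPM and Kcne2 at 1.15 CPM, against medians of 0.138 and 0.104. Sostdc1, Otx2 and Kcnj13 were below their medians there, at 0.617, 0.176 and 0.881 CPM. Markers of ependyma, which lines the ventricles, were also high in several libraries high in Ttr: their summed CPM ranked 1 in APP/E4 HFD female 6 (40.6 CPM against a median of 19.6), 2 in APP/E4 HFD female 5 (32.8), 4 in APP/E4 ND female 7 (32.0) and 6 in APP/E3 HFD female 6 (30.2), but 25 in APP/E4 HFD female 4 (19.9). APP/E3 ND female 4 ranked 3 (32.5). APP/E3 ND male 3 ranked 5 (30.3), although its Ttr, at 6.49 CPM, was below the Ttr median. Ttr rose with the mean of 11 ependymal genes (r = 0.494, permutation p = 0.00019, adjusted p = 0.00277; rho = 0.427, permutation p = 0.00172, adjusted p = 0.00903), with r = 0.427 without the 2 farthest libraries and 0.528 within read class 1. Folr1 (r = 0.470, rho = 0.384), Clic6 (r = 0.439, rho = 0.437) and Kl (r = 0.431, rho = 0.408) rose with it too, at adjusted permutation p of 0.00425, 0.00682 and 0.0073 for r, over 63 relations of members with lists. Enpp2 passed by r (0.344, permutation adjusted p = 0.041) but not by rho (0.18, permutation adjusted p = 0.363). The part of ependymal RNA in the levels of the members was not tested. Ttr also rose with the mean of 10 endothelial genes by r (0.365, permutation adjusted p = 0.0309) and rho (0.359, permutation adjusted p = 0.0371). For meninges, APP/E3 HFD female 6 ranked 6 of 52 (251 CPM against 142). APP/E4 HFD females 4, 6 and 5 ranked 4 (253 CPM), 15 (181) and 32 (113.5), and APP/E4 ND female 7 ranked 49 (53.5).

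**Figure D3:**
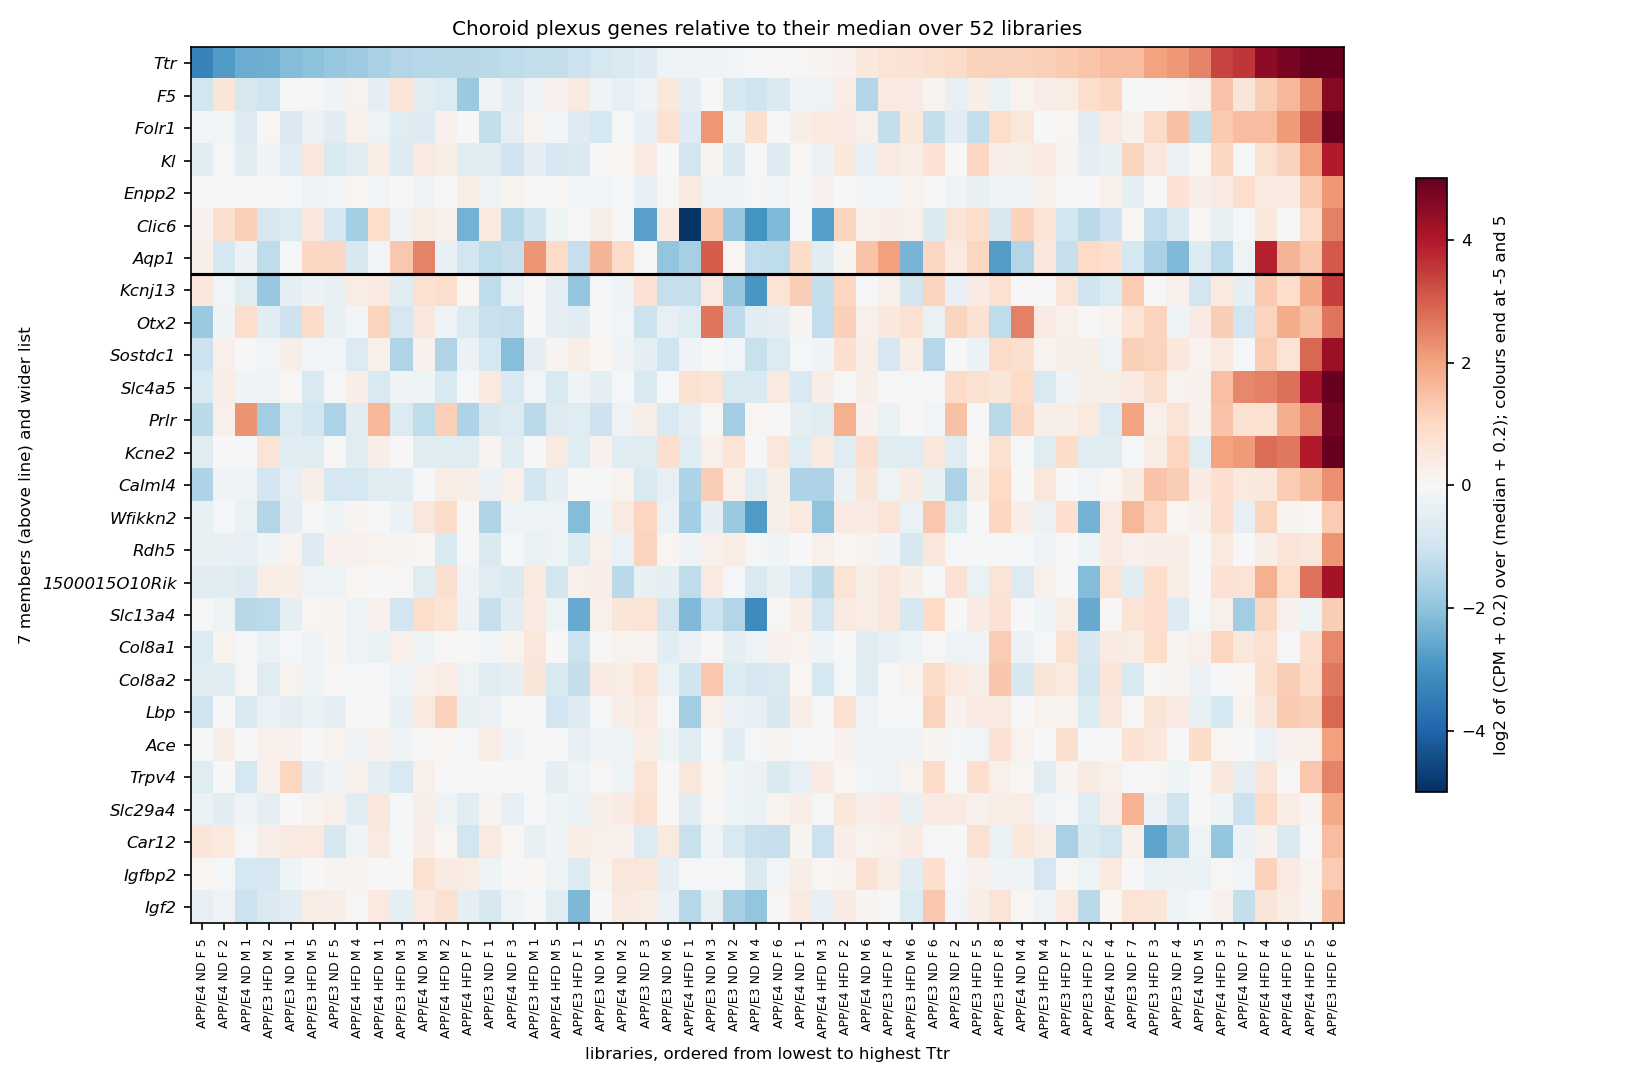
Rows are the 7 members (above the line) and 20 further choroid plexus genes, columns are the 52 libraries ordered by Ttr from lowest to highest, and colour is the log2 ratio of CPM to the gene's median, each with 0.2 added, ending at -5 and 5. The last column, APP/E3 HFD female 6, is red in all rows, and Clic6 and Aqp1 do not follow the order of Ttr in the rest.

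The genes nearest to F5, Folr1, Kl and Enpp2 were found in the same way, a step chosen after seeing the data. Slc4a5 was nearest to F5 (r = 0.779), Kcne2 to Folr1 (0.808), and Slc4a2, an anion exchanger, to Enpp2 (0.777). Of the 10 nearest, 7 for F5, 7 for Folr1, 6 for Kl and 5 for Enpp2 were in the list of further choroid plexus genes. Kl was nearest to Slc2a12 (r = 0.820), a glucose transporter outside that list. Kl also rose with the mean of 14 meningeal genes (r = 0.494, permutation p = 0.00022, adjusted p = 0.00277 over 63 relations of members with lists; rho = 0.670, permutation p = 1e-05, adjusted p = 0.00021), and r was 0.603 without the 2 farthest libraries and 0.443 within read class 1. Other lists gave values of a like size for Kl: r was 0.480 for thalamus, 0.447 for hippocampus, 0.416 for endothelium and -0.491 for cortical neurons (permutation adjusted p = 0.00357, 0.00441, 0.00853 and 0.00425). Enpp2 rose with the mean of 12 oligodendrocyte genes (r = 0.442, permutation p = 0.00313, adjusted p = 0.0141; rho = 0.496, permutation p = 0.00032, adjusted p = 0.00336), and r was 0.622 without the 2 farthest libraries but 0.279 within read class 1.

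Clic6 and Aqp1 had none of the further choroid plexus genes among their 10 nearest. The nearest to Clic6 were C030048H21Rik (r = 0.830), Lhx8 (0.807), Six3os1 (0.801), Pde1c (0.801), Slitrk6 (0.794), Htr4 (0.784) and Slc5a7 (0.782). Lhx8, a homeodomain factor, and Slc5a7, the choline transporter, are known from cholinergic neurons of the basal forebrain and striatum. Clic6 rose with the mean of 10 striatal genes (r = 0.742, permutation p = 1e-05, adjusted p = 0.000315; rho = 0.733, permutation p = 1e-05, adjusted p = 0.00021), with r = 0.720 without the 2 farthest libraries and 0.769 within read class 1. It fell with the mean of 8 cortical neuron genes (r = -0.610, permutation p = 3e-05, adjusted p = 0.00063; rho = -0.695, permutation p = 1e-05, adjusted p = 0.00021), with r = -0.581 without the 2 farthest libraries and -0.658 within read class 1. Clic6 also rose with the lists for thalamus (r = 0.583, permutation adjusted p = 0.000315) and oligodendrocytes (r = 0.349, permutation adjusted p = 0.0428). With 6 cholinergic genes of the basal forebrain, added after the nearest genes were seen and holding Lhx8 and Slc5a7, r of Clic6 was 0.788. The library of highest Clic6, APP/E3 HFD female 6, ranked 5 of 52 for the summed CPM of this list (79.9 against a median of 29.0), and the part of such RNA in its Clic6 level was not tested.

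The nearest to Aqp1 were Npr1 (r = 0.847), Eomes (0.835), Chrnb4 (0.827), Sp8 (0.819), Ms4a15 (0.817), Gcnt1 (0.810), Doc2g (0.807) and Omp (0.806). Eomes and Doc2g are known from output neurons of the olfactory bulb, and Omp from olfactory sensory axons. Among the 63 relations of members with lists, Aqp1 rose with thalamus (r = 0.455, permutation adjusted p = 0.00441) and meninges (r = 0.394, permutation adjusted p = 0.0152). It fell with cortical neurons (r = -0.373, permutation adjusted p = 0.0259). With 7 olfactory bulb genes, a list added after the nearest genes were seen and holding 5 of the 10 nearest, r of Aqp1 was 0.852. APP/E4 HFD female 4 had the highest summed CPM of this list, 572 against a median of 28.6, with Omp at 123 CPM and Eomes at 85 CPM. APP/E3 ND male 3, another library high in Aqp1, was second with 305 CPM, but 278 of these were Omp and Eomes was at 3.49 CPM. APP/E3 HFD female 6, in which Aqp1 reached 17.5 CPM, had 37.2 CPM of the list and ranked 24.

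**Figure D4:**
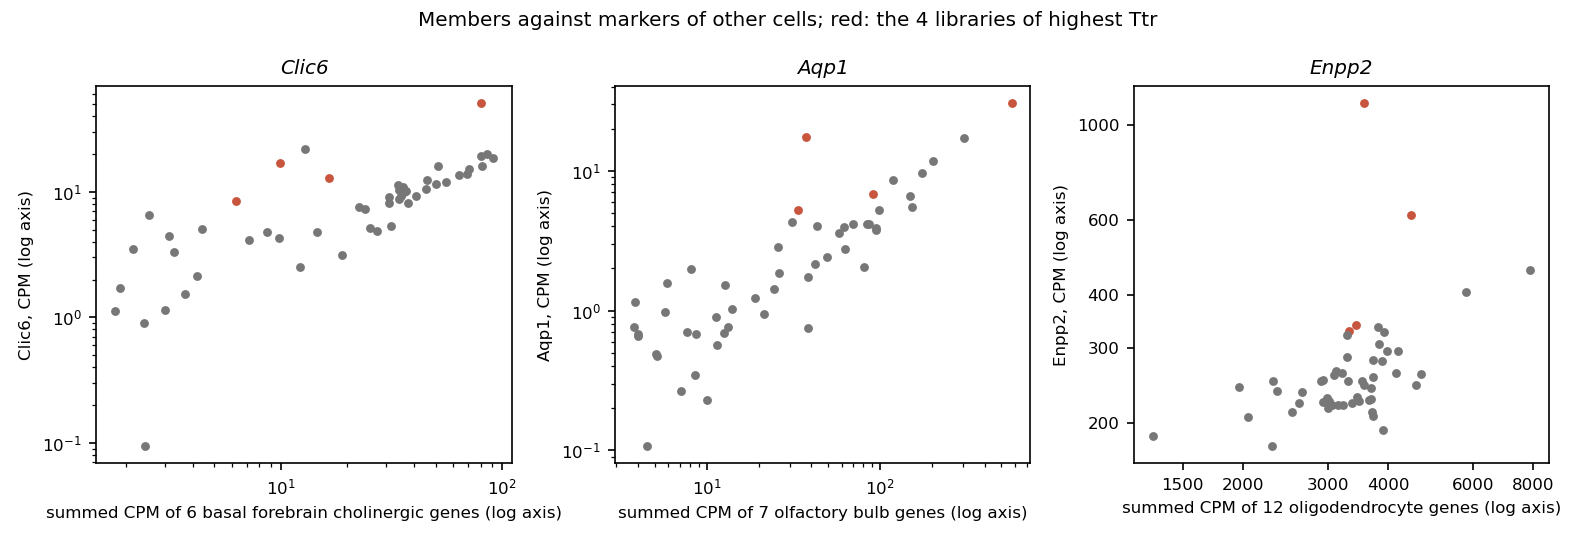
Each panel plots the CPM of 1 member against the summed CPM of another marker list, on log axes, with 1 point per library and the 4 libraries of highest Ttr in red. Both added lists, for Clic6 and Aqp1, were written from genes nearest to those members and hold some of them, so their high r (0.788 and 0.852 with the lists' mean log2 CPM) follows in part from that choice; APP/E3 HFD female 6 lies above the other points at its list level for Clic6, Aqp1 and Enpp2.

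Group differences were tested with edgeR's quasi-likelihood test over 15195 genes, and a gene was called at a Benjamini-Hochberg adjusted p under 0.05. Between females and males, averaged over genotype and diet, 1 of the 7 members was called, against 4.42% of all genes (442 higher and 229 lower in females). That member was Ttr, higher in females by 3.35 ± 0.69 on the log2 scale (SE, n = 29 and 23, edgeR adjusted p = 0.00215). Median Ttr was 14.4 CPM in females (0.527 to 2402) and 3.82 CPM in males (1.15 to 40.9), and the sexes overlapped. Without APP/E3 HFD female 6 the log2 difference was 2.28. Without the 2 libraries of highest Ttr it was 2.0 (edgeR adjusted p = 0.00853), and without the 4 highest, an alternative added after seeing the data, 1.58 (edgeR adjusted p = 0.0333). These libraries are all from females and were left out for their Ttr, which by itself lowers the difference.

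The call for Ttr was lost with limma voom (log2 difference 1.97, adjusted p = 0.155) and when the presence of a sex letter in the sample title was a term (3.28, edgeR adjusted p = 0.291). That term leaves 9 males to compare with the females, and 18 genes in all were called with it. Males with the letter had a median of 6.49 CPM of Ttr and those without it 3.09 CPM. With read class 1 alone, 18 females and 23 males, the log2 difference was 3.21 (edgeR adjusted p = 0.00382).

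F5 was higher in females by 1.09 ± 0.35 (SE) on the log2 scale but missed the threshold (edgeR adjusted p = 0.0612). With limma voom it was 0.64 (adjusted p = 0.25) and with the sex letter as a term the adjusted p in edgeR was 0.521. It passed with DESeq2 (adjusted p = 0.0209), with read class as a term in edgeR (adjusted p = 0.00979) and in read class 1 alone (adjusted p = 0.0133). The log2 difference of F5 without the 2 libraries of highest Ttr was 0.54 (edgeR adjusted p = 0.136). Of all genes, DESeq2 called 5.51%, edgeR with read class as a term 4.31% and edgeR in read class 1 alone 5.18%. Folr1 differed by 1.37 ± 0.58 (SE; edgeR adjusted p = 0.18), Kl by 0.66 ± 0.27 (adjusted p = 0.154) and Enpp2 by 0.30 ± 0.13 (adjusted p = 0.202). For Kl the adjusted p in edgeR was 0.0373 with read class as a term and 0.0178 in read class 1 alone, but 0.566 with the sex letter, and with limma voom the difference was 0.33 (adjusted p = 0.476). Without the 2 libraries of highest Ttr it was 0.23 for Kl (edgeR adjusted p = 0.452) and 0.10 for Enpp2 (adjusted p = 0.418). Clic6 differed by -0.07 ± 0.32 and Aqp1 by -0.05 ± 0.44 (SE), and their direction turned with read class as a term. Of the 20 further choroid plexus genes, 18 were higher in females and 2 were called, Slc4a5 (2.74 ± 0.74, SE, edgeR adjusted p = 0.0225) and Kcnj13 (1.07 ± 0.32, SE, adjusted p = 0.0435). The median log2 difference of the 20 was 0.42, against 0.0027 over all genes. APP/E3 HFD female 6 had the highest value of 18 of the 20, and its part in this count was not tested. Other marker sets also leaned to 1 side without a called gene. In females 10 of 11 ependymal, 12 of 14 meningeal, 10 of 10 endothelial and 12 of 12 oligodendrocyte genes were higher, with medians of 0.23, 0.28, 0.08 and 0.06, while 10 of 10 striatal and 6 of 6 basal forebrain cholinergic genes were lower, with medians of -0.37 and -0.47. Their part in the Ttr result was not tested.

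For diet, averaged over genotype and sex, no member was called in edgeR, against 0.0% of all genes. At an unadjusted p under 0.05 there were 4 members, against 9.2% of all genes, and limma voom called none. DESeq2 called none either, but it gave an adjusted p only for Ttr (0.225) and Enpp2 (0.402). The other members had none there and could not be called by it. Ttr had a median of 10.1 CPM on HFD (1.17 to 2402, n = 26) and 6.52 CPM on ND (0.527 to 88.0, n = 26). Its log2 difference, HFD minus ND, was 1.53 ± 0.70 (SE, edgeR adjusted p = 0.498). It was 0.47 without APP/E3 HFD female 6, 0.21 without the 2 libraries of highest Ttr and -0.21 without the 4 highest. These 4 libraries are all from HFD mice and were left out for their Ttr, which by itself lowers the difference. F5 differed by 1.0 ± 0.35 (SE, adjusted p = 0.371), Kl by 0.67 ± 0.27 (adjusted p = 0.433), Folr1 by 1.09 ± 0.60 (adjusted p = 0.595) and Enpp2 by 0.28 ± 0.13 (adjusted p = 0.511). Without the 2 libraries of highest Ttr the differences were 0.47 for F5, 0.25 for Kl and 0.087 for Enpp2. Of the further choroid plexus genes, 18 of 20 were higher on HFD, with a median of 0.27 and none called, and the median of all genes was -0.002. By group, 17 of 20 were higher in APP/E3 females and 18 in APP/E4 females (medians 0.638 and 0.525). In APP/E3 males 10 were higher and in APP/E4 males 7 (medians -0.007 and -0.134). APP/E3 HFD female 6 had the highest value of 18 of the 20, and its part in these counts was not tested.

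Within APP/E3 females no member was called, against 0.0263% of all genes, although 5 had an unadjusted p under 0.05, against 4.69% of all genes. Ttr gave a log2 difference of 4.52 ± 1.19 (SE, edgeR adjusted p = 0.446) and 0.28 without APP/E3 HFD female 6. Without that library Kl went from 1.37 to 0.031, Enpp2 from 0.51 to -0.074, Folr1 from 3.08 to -0.074 and F5 from 2.30 to 0.50. DESeq2 called Ttr there (adjusted p = 0.00604), with 0.0526% of all genes, and limma voom called none. In read class 1 alone, where edgeR called 0.0394% of all genes (6 of 15222), it called 4 members, Ttr (6.78, adjusted p = 0.0324), F5 (3.55), Kl (2.66) and Folr1 (6.16, adjusted p = 0.0297 each), from 3 HFD and 5 ND females, and female 6 is among the 3. Folr1 is in this test only through libraries high in Ttr, since it failed the low-count filter without the 2 highest. Within APP/E4 females, whose HFD group held 4 of the 6 libraries of highest Ttr, no member was called, against 0.0% of all genes, and 3 had an unadjusted p under 0.05, against 7.9% of all genes. Ttr differed there by 3.07 ± 1.12 (SE, edgeR adjusted p = 0.599) and by 0.36 without the 4 libraries of highest Ttr, 3 of which are in this HFD group. Kl differed by 1.21 ± 0.51 and by 0.57 without those libraries (edgeR adjusted p = 0.599 in full). Aqp1 differed by 1.76 ± 0.85 (SE, adjusted p = 0.626) and by 0.44 without APP/E4 HFD female 4. In the same comparison all 7 olfactory bulb genes were higher, with a median of 1.33 against 0.0051 over all genes, and their part in the Aqp1 difference was not tested. In APP/E3 males and in APP/E4 males no member was called, each against 0.0% of all genes, and none had an unadjusted p under 0.05, against 13.6% and 3.65% of all genes. Ttr differed by 0.24 ± 1.54 in APP/E3 males and by -1.70 ± 1.65 in APP/E4 males (SE).

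The diet difference was not shown to depend on sex: for the interaction of diet with sex no member was called, against 0.0% of all genes, and 3 members, Ttr, Kl and Aqp1, had an unadjusted p under 0.05, against 7.84% of all genes. The Ttr interaction was 4.52 ± 1.37 on the log2 scale (SE, edgeR adjusted p = 0.6). No member was called for the interaction of diet with genotype, against 0.0% of all genes, or for that of genotype with sex, against 0.00658%, and none had an unadjusted p under 0.05 in either, against 9.97% and 5.11% of all genes. DESeq2 and limma voom called no member in the 3 interactions.

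Between APP/E4 and APP/E3, averaged over diet and sex, no member was called in edgeR, against 6.79% of all genes, and none had an unadjusted p under 0.05, against 21.3% of all genes. Ttr had similar medians, 7.41 CPM in APP/E4 (0.527 to 651, n = 25) and 7.10 CPM in APP/E3 (1.17 to 2402, n = 27). Its log2 difference was -0.01 ± 0.69 (SE, edgeR adjusted p = 0.997), but 1.05 without APP/E3 HFD female 6. Enpp2 differed by 0.11 ± 0.13 (SE, adjusted p = 0.682), and was called higher in APP/E4 without the 2 libraries of highest Ttr (0.21, edgeR adjusted p = 0.0413, with 6.71% of all genes called) and without APP/E3 HFD female 6 alone (0.26, adjusted p = 0.0299). All 12 oligodendrocyte genes were higher in APP/E4, with a median of 0.28 against -0.0001 over all genes. Of these, 3 were called: Ugt8a (0.31), Mag (0.38) and Ermn (0.35). Whether oligodendrocyte RNA has a part in the Enpp2 difference was not tested.

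**Figure D5:**
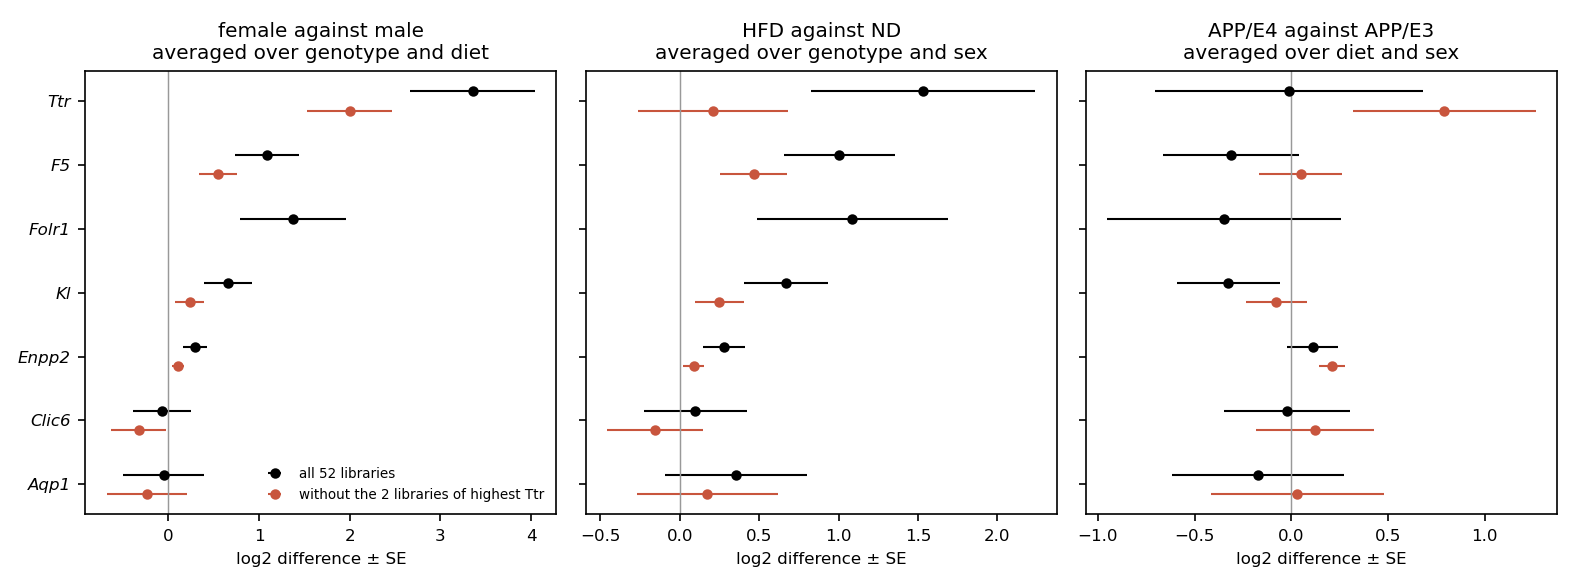
Log2 differences (points) with their standard errors (bars) for the 7 members in the 3 averaged comparisons, from all 52 libraries (black) and without the 2 libraries of highest Ttr (red); Folr1 has no red point because it failed the low-count filter. Ttr between the sexes moves from 3.35 to 2.0 and between diets from 1.53 to 0.21.

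Genes that work with the members were followed through lists that hold none of them. No gene was called in the 3 averaged comparisons among 11 genes of thyroid hormone and retinol transport, 9 of folate uptake and use, 8 of lysophosphatidic acid receptors and breakdown, 3 of the Klotho family and FGF receptors and 3 other water channels. Between females and males their medians were 0.02, 0.05, 0.07, 0.04 and 0.05 on the log2 scale. The summed CPM of the folate genes was highest in APP/E3 HFD female 6, at 153 CPM against a median of 135, and so was that of the Klotho and FGF receptor genes, at 343 CPM against 249.

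In the authors' deposited table, which gives a log2 coefficient for diet over all libraries, the coefficient of Ttr was -0.98 (p-value 0.141) and that of F5 was -0.64 (p-value 0.0315). The authors' p-values are not adjusted for the number of genes. The sign of that column runs opposite to HFD minus ND as computed from the deposited counts (r = -0.965 across 15172 genes, which are not independent replicates). In the authors' deposited table the coefficients of Kl, Folr1 and Enpp2 were -0.42, -0.74 and -0.22, and those of Clic6 and Aqp1 were 0.16 and 0.06. With the sign turned, Clic6 and Aqp1 were thus lower on HFD in that column. In edgeR they were higher, by 0.099 ± 0.32 and 0.357 ± 0.45 (SE, edgeR adjusted p = 0.956 and 0.853).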

How the data were processed

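Messenger RNA of frontal cortex was measured in 52 mice, and the table deposited by the authors holds unnormalized counts by gene, next to the log2 coefficient and p-value of their own diet comparison. The submitters' processing notes name build mm9, Subread, featureCounts, limma and edgeR 3.14.0. For annotation, strandedness and multi-mapping reads the setting is not stated in them. Mice were perfused and RNA of integrity number above 8 was used, per the labels' protocols.

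Groups came from the labels for genotype, diet and sex. Counts were filtered with filterByExpr, scaled by TMM and fitted with 1 mean per group in edgeR 4.0.16 (robust quasi-likelihood, R 4.3.3), tested on simulated data. Alternatives used limma 3.58.1 (voom) and DESeq2 1.42.0, run without outlier replacement. Log2 CPM carry a prior count of 2. Correlations have 100000 permutations (scipy 1.17.1). Read classes split at 3 CPM of Csl. Exon lengths are unions from GENCODE (GRCm38). The closest within-group pair of libraries, of 146, had a chi-square per gene of 2.95, so no library was a duplicate of another in its group. Pairs from different groups were not part of this check. The labels name no replicate source beyond the library, and p-values measure the spread between these mice.

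The members and all lists were chosen with earlier results of these data known. Named were all members, list genes called in an averaged comparison (at most 4 a list) or among the 20 genes nearest to Ttr, and the 10 nearest genes of each member.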

Additional observations from a re-analysis of the deposited data

Results flagged for a closer look

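In 8 of 56 combinations of member and group, 1 library stood far above the rest of its group by Dixon's gap test on log2 CPM, and chance gives about 1 in 20. Of these, 5 are in APP/E3 HFD female 6, where the gap to the next library took up 0.671 of the group's range for Ttr (2402 against 30.1 CPM), 0.755 for F5 (27.7 against 1.97), 0.676 for Folr1 (18.8 against 0.682), 0.619 for Kl (89.0 against 11.7) and 0.848 for Enpp2 (1127 against 252), above a critical value of 0.526 for 8 samples. These 5 are not independent, since they come from 1 library.

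The other flags were all for Enpp2, with a critical value of 0.568 for 7 samples. The ratio was 0.647 for APP/E4 HFD female 5 (615 against 340 CPM), 0.611 for APP/E4 ND female 7 (457 against 295) and 0.603 for APP/E3 ND female 4 (407 against 246). No library was separated at the low end of its group.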

How the results depend on the processing

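No paired analysis was possible because the labels give no replicate numbers. Of the 7 members, the number called between females and males was 1, with 671 of 15195 genes called in all. It was 2 with DESeq2 (837 genes in all), 0 with limma voom (808) and 3 with read class as a term (655). It was 0 with the title's sex letter as a term (18) and 3 in read class 1 alone (789 of 15222). When each library was left out in turn the number was 1 to 2, and Ttr was called in all 52 such fits. For HFD against ND in APP/E3 females the count went from 0 (4 of 15195 genes in all) to 1 with DESeq2 (8 genes) and to 4 in read class 1 alone (6 of 15222). Between genotypes it went from 0 (1032 of 15195 genes in all) to 1 (1018 of 15175) without the 2 libraries of highest Ttr. It ran from 0 to 1 over single libraries left out. The correlated pairs fell from 15 to 7 without the 2 libraries of highest Ttr. The libraries with at least 4 high members went from 1 to 3 at 3 times the median.

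Directions turned only for log2 differences below the threshold. For HFD against ND these were Ttr at -0.21 without the 4 libraries of highest Ttr, Clic6 at -0.23 with voom, -0.15 without the 2 highest and -0.22 without the 4 highest, and Aqp1 at -0.052 with voom and -0.52 without the 4 highest. For APP/E4 against APP/E3 they were Ttr at 0.066 with voom, 0.029 with read class as a term, 0.79 without the 2 highest and 0.37 without the 4 highest, F5 at 0.049 and Aqp1 at 0.032 without the 2 highest, Folr1 at 0.53 and Aqp1 at 0.037 with voom, Enpp2 at -0.022 in read class 1 alone, and Clic6 at 0.12 without the 2 highest and 0.058 without the 4 highest. Between the sexes, Clic6 was 0.32 with read class as a term, 0.12 with the sex letter and 0.33 in read class 1 alone, and Aqp1 was 0.55 with read class as a term and 0.53 in read class 1 alone. In APP/E3 females, Enpp2 was -0.071 without the 2 or 4 highest, and Clic6 was -0.008 and -0.011. Leaving out single libraries turned Clic6 in the diet comparison (-0.10 to 0.20), Ttr (-0.37 to 1.05), F5 (-0.40 to 0.14), Folr1 (-0.49 to 0.44), Kl (-0.41 to 0.01), Clic6 (-0.15 to 0.18) and Aqp1 (-0.50 to 0.026) between genotypes, and Clic6 (-0.27 to 0.057) and Aqp1 (-0.38 to 0.15) between the sexes. In APP/E3 females it turned Folr1 (-0.074 to 4.13), Enpp2 (-0.074 to 0.69) and Clic6 (-0.011 to 1.02). The cause was not tested in any of these. Depth limits Folr1 most, with under 3 counts in 26 of 52 libraries.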
